A study of Mus musculus with 24 samples.

Results

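Livers of male C57Bl/6J mice that had inhaled vinyl chloride on the control diet were compared at the end of exposure and after a long recovery. All 6 libraries share the control diet (13% fat) and nominal vinyl chloride of 0.85 ± 0.1 ppm, in daily sessions of 6 hours, 5 days each week, for 12 weeks. Group w12_CD+VC (3 libraries) was taken when those 12 weeks ended, and group m12_CD+VC (3 libraries) came after 9 more months of housing without exposure, at 12 months of feeding. The libraries were chosen by these group labels alone, 6 of the 24 in the series, and every mouse was fasted for 4 hours before its liver was taken. The other groups used here are the clean-air mice on the control diet (w12_CD and m12_CD) and the exposed mice on a Western diet with 42% fat (w12_WD+VC and m12_WD+VC), with 3 libraries each. Age, time since exposure and duration of feeding all differ between w12 and m12 and cannot be told apart within the exposed mice. Whether the libraries of a group are separate animals is not in the labels, and the p-values therefore reflect only how much these samples vary, which may be technical.

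Vinyl chloride is a gas used to make plastic. In hepatocytes the cytochrome P450 Cyp2e1 oxidises it to a reactive epoxide, which rearranges to chloroacetaldehyde. Aldehyde and alcohol dehydrogenases and conjugation to glutathione by glutathione S-transferases clear these products, and what escapes can react with proteins and with DNA bases that base excision repair removes. The liver also makes most plasma proteins and handles dietary lipid through fatty acid oxidation under the nuclear receptor Ppara and through lipid and sterol synthesis under the Srebp factors.

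Genes called higher after the recovery than at the end of exposure included Apoa4, an apolipoprotein of lipid transport, at 5.74-fold, Fads2, the delta-6 fatty acid desaturase, at 4.46-fold, and Gstt2, a theta class glutathione transferase found at 2 counts over the 3 w12_CD+VC libraries and 41 over the 3 m12_CD+VC libraries. Glutathione, aldehyde clearance, ferritin and Ppara target genes included further higher calls and no lower ones. Of the 132 lower calls, 86 lay in genes with an exon overlap to an opposite-strand gene. These included Hmox2, the constitutive heme oxygenase, and Lig3, the ligase that seals nicks in base excision repair. When genes with and without an overlap were scaled separately, they held 43 and 72 lower calls. Of 4198 genes tested, 268 passed edgeR's quasi-likelihood test at a Benjamini-Hochberg adjusted p of 0.05 (6.38%), 136 higher (3.24%) and 132 lower (3.14%) in m12_CD+VC. Groups did not overlap for 249 of the 268 called genes and for 1223 of all 4198 tested.

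The libraries were shallow. Group w12_CD+VC held 140926 to 421344 counts and m12_CD+VC held 126160 to 384262, and the second library was the smallest in both. Levels below are CPM, counts per 1000000 of the library size scaled by edgeR's TMM factors, and 3 counts, the upper limit that a count of 0 allows, correspond to 7.74 to 23.6 CPM over the 6 libraries. One library of a group outside this comparison, w12_WD replicate 3, held 607 counts. It enters only the filter that chose the genes tested, the shared estimate of spread and the scaling. Hepatocyte markers were abundant, and Alb, Ttr, Apoa1, Hnf4a and Cps1 had counts in both groups. The T and NK cell genes Cd3d, Cd3e, Cd3g, Lck and Nkg7, the neutrophil genes S100a8 and S100a9, the cholangiocyte genes Krt7 and Krt19 and the globins Hba-a1 and Hbb-bs had 0 counts in all 6 libraries. The list of 12 cholangiocyte markers, 5 of them at 0 in all 6, nevertheless summed to 116 to 134 CPM in w12_CD+VC and 175 to 346 in m12_CD+VC, and its members are described with the other cell types. Liver is a mixture of cell types, so fewer cells of a type and less RNA per cell cannot be told apart.

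A property of the gene models moved with the groups and touches most results. Genes without an exon overlapping a gene on the other strand took 14.3% to 18.7% of counts in the w12_CD+VC libraries and 22.5% to 31.7% in m12_CD+VC, and the groups did not overlap. Their median log2 fold change was 0.52 over 2030 genes, against -0.16 over the 2121 genes with such an overlap and 0.13 over all genes tested. With 1 of the 6 libraries left out, these medians ran from 0.33 to 0.58, from -0.33 to -0.10 and from 0.02 to 0.17. Calls split accordingly. Among genes without an overlap, 99 were called higher (4.88%) and 44 lower (2.17%), and among genes with one, 37 were higher (1.74%) and 86 lower (4.05%). When the classes were scaled separately, 92 genes were called higher (2.19%) and 117 lower (2.79%). Of these, 63 higher and 89 lower were also called with joint scaling. The split by class then reversed, with 26 higher and 72 lower among genes without an overlap and 66 and 43 among genes with one. The direction of the split therefore depended on the scaling. RLE scaling, which moved the median of all genes to 0.38, gave 213 higher and 58 lower. DESeq2 gave 89 and 36, limma-voom 104 and 146, and tests of the genes without an overlap alone gave 13 and 53. Fitting the same 4198 genes without w12_WD replicate 3 gave 96 higher and 188 lower, and testing all 15541 genes with a count gave 49 and 89. No gene called with joint scaling changed sign in any of these fits. Class-wise values stand beside most results below, and what moved the shares was not tested. Counts of list members above 0 are to be read beside 2330 of 4198 genes over all tested and 1434 of 2030 without an overlap. The library kit named in the labels does not mark strand, so reads of a gene and of its overlapping partner cannot be told apart. The labels do not say how reads were assigned by strand, and genes with an overlap took 66.9% to 83.9% of the counts in these 6 libraries. Whether the counting setting matched the kit was not tested, so the CPM of a gene with an overlap may not be the level of that gene alone.

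**Figure D1:**
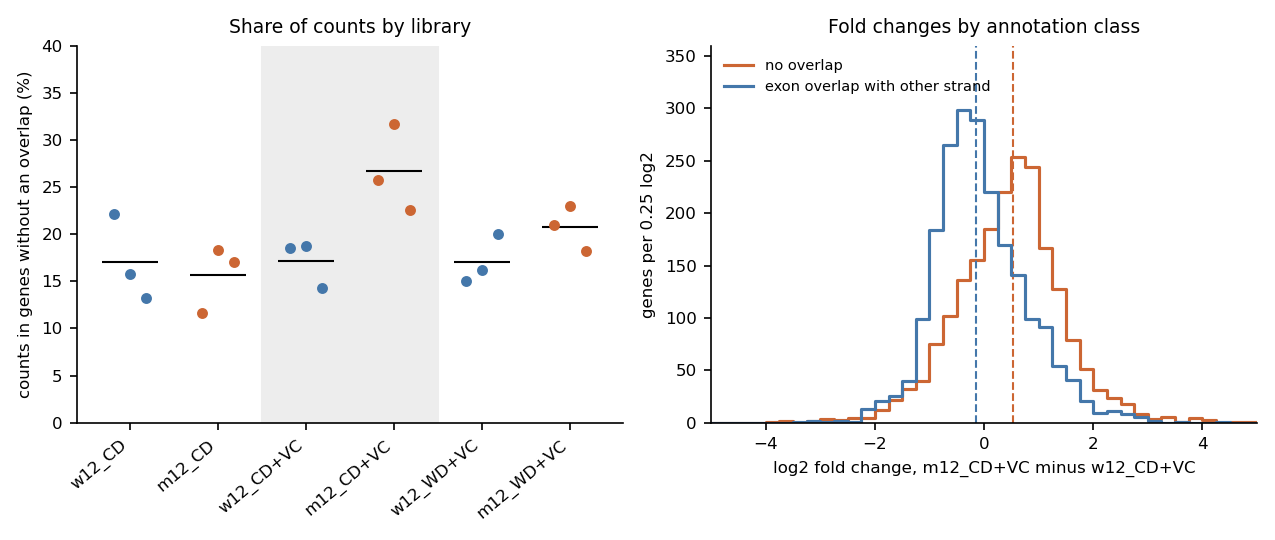
Left, the percentage of each library's counts that fell in genes without an exon overlap on the other strand, for 6 groups (points are libraries, lines are means, grey marks the exposed mice on control diet). Right, the number of genes per 0.25 step of log2 fold change in m12_CD+VC against w12_CD+VC for genes with and without an overlap, with dashed medians at -0.16 and 0.52; the 3 m12_CD+VC libraries lie at 22.5% to 31.7%, above all 3 w12_CD+VC libraries.

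Single libraries carried many calls. Leaving out w12_CD+VC replicate 3 left 50 calls, and leaving out any other of the 6 left 126 to 201. Among 75 calls picked for naming, 45, 28 and 59 lost their call without w12_CD+VC replicates 1, 2 and 3, and 42, 43 and 41 without m12_CD+VC replicates 1, 2 and 3. Whichever of the 6 was left out, 29 genes kept their call. All 29 were also called with class-wise scaling, 8 higher (Apoa4, Fads2, Gstt2, Ftl1, Phb2, Iqck and Entpd5 among them) and 21 lower. Of these, 25, 4 higher and 21 lower, passed with RLE scaling and with DESeq2 as well. DESeq2 gave an adjusted p for only 47 of the 75 calls picked for naming, and a missing value was counted as not passing. Gstt2 and Entpd5 dropped out for lack of a DESeq2 adjusted p.

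Genes that act on vinyl chloride itself were measured first. Cyp2e1, which starts the oxidation, stood at 1037, 1630 and 632 CPM in the w12_CD+VC libraries and at 476, 3108 and 1766 in m12_CD+VC. Both the lowest and the highest value came from the later group, and the difference was not called (log2 fold change 0.70 ± 0.44 SE, edgeR adjusted p = 0.325). Without m12_CD+VC replicate 2 it was -0.03. All 12 listed genes of vinyl chloride oxidation and clearance were tested, and all 12 fold changes lay above 0 with a median of 0.98, beside 2330 of 4198 genes above 0 over all tested and 1434 of 2030 without an overlap. Of the 12, 3 were called higher and 0 lower with joint scaling, and 2 with class-wise scaling, where the median was 0.73. With a library left out the number called ran from 0, without w12_CD+VC replicate 3, to 2.

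Adh1, a class I alcohol dehydrogenase that interconverts alcohols and aldehydes, rose from 124, 158 and 66.6 CPM to 442, 495 and 382. All 3 later libraries lay far above the earlier ones, 3.89-fold (log2 fold change 1.96 ± 0.42, edgeR adjusted p = 0.00762; class-wise 0.0045), although its exons overlap the antisense entry Gm16559 and without w12_CD+VC replicate 3 its adjusted p was 0.0567. Aldh1a1, a cytosolic aldehyde dehydrogenase, rose from 90.3, 94.5 and 96.5 CPM to 202, 384 and 170. Its call was at the edge (edgeR adjusted p = 0.0491), it was lost whichever of the 6 libraries was left out, reaching 0.261 without m12_CD+VC replicate 2, and class-wise scaling gave 0.163. Aldh1b1, a mitochondrial form, had 9 counts at the end of exposure and 53 after recovery (edgeR adjusted p = 0.0499; class-wise 0.103; 0.235 without m12_CD+VC replicate 1). Aldh2, the mitochondrial enzyme best known for acetaldehyde, gave 552, 591 and 406 CPM against 893, 1115 and 1019, groups that did not overlap, with an edgeR adjusted p of 0.0521 under joint and 0.0294 under class-wise scaling.

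Glutathione transferases attach glutathione to reactive compounds. Of 22 listed transferase and glutathione synthesis genes, 12 had enough counts to be tested; all 12 lay above 0, with a median log2 fold change of 1.43, or 1.16 with class-wise scaling. Called higher were 5 (Gstt2, Gstm1, Gstm3, Gsta3 and Gclc) and lower 0, and 3 passed class-wise. With a library left out 1 to 4 were called, the fewest without m12_CD+VC replicate 1 or w12_CD+VC replicate 3. Of the 12 tested, 10 had no exon overlap, a class with 1434 of 2030 genes above 0 and 4.88% called higher. Summed over all 22 genes, the level was 576 to 1058 CPM in w12_CD+VC and 1847 to 2668 in m12_CD+VC.

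Gstt2 (chr10:75831114-75837424, GRCm38, minus strand) was measured at 2.58, 7.88 and 0 CPM at the end of exposure and at 30.4, 66.4 and 58.5 after recovery. The groups were far apart, with a ratio of 19.5 (exact 95% counting interval 5.07 to 167) and an edgeR adjusted p of 0.00226 (class-wise 0.00406, and at most 0.0239 with any of the 6 libraries left out). Gstm1, a mu class enzyme abundant in liver, rose from 116, 102 and 43.3 CPM to 1034, 207 and 448, 6.62-fold (edgeR adjusted p = 0.00828; class-wise 0.0188). The later libraries spread widely, and without m12_CD+VC replicate 1, the highest, the adjusted p was 0.0781. Gstm3 had 0 counts in the w12_CD+VC libraries and 124, 0 and 8.36 CPM in m12_CD+VC, at least 15.2-fold higher when w12_CD+VC is set at 3 counts in all, the floor. That bound rests on m12_CD+VC replicate 1, without which the edgeR adjusted p went from 0.0166 to 0.239. Gsta3, an alpha class transferase, stood at 132, 134 and 33.3 CPM and then 268, 421 and 237 (edgeR adjusted p = 0.0458; class-wise 0.0876; 0.216 without w12_CD+VC replicate 3). Gclc, the catalytic subunit of glutamate-cysteine ligase and named after its values were seen, had overlapping groups at 64.5, 39.4 and 39.9 against 182, 155 and 61.3 CPM (edgeR adjusted p = 0.0479; class-wise 0.175; lost with any library but m12_CD+VC replicate 3 left out, at up to 0.251). The mu class genes are close copies of each other, so their counts are uncertain where reads fit several members.

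Genes of the antioxidant response are controlled by the factor Nrf2 (Nfe2l2), which binds antioxidant response elements. Of 15 listed targets and ferritins, 13 were tested, 4 were called higher and 0 lower, all 13 lay above 0, and the median was 0.87 (2 called and 0.58 with class-wise scaling; 2 to 4 called with a library left out). Among the 13 tested, 11 had no exon overlap, a class with 1434 of 2030 genes above 0 and 4.88% called higher. Ferritin subunits store iron. Ftl1, the light chain, rose from 137, 55.1 and 116 CPM to 500, 450 and 295, 3.81-fold, with no overlap of the groups (log2 fold change 1.93 ± 0.39, edgeR adjusted p = 0.00534; class-wise 0.00319; at most 0.0272 with a library left out). Fth1, the heavy chain, rose from 204, 181 and 99.9 to 539, 605 and 418 CPM, 3.21-fold (edgeR adjusted p = 0.00742; class-wise 0.0188; 0.0547 without w12_CD+VC replicate 3). Both ferritins have many processed pseudogenes, which can share their reads. Srxn1, sulfiredoxin, had 2 counts against 32, a ratio of 15.2 (exact 95% interval 3.89 to 131; edgeR adjusted p = 0.0288; class-wise 0.0594). Gpx1, the cytosolic glutathione peroxidase, stood at 77.4, 126 and 83.2 CPM and then 188, 413 and 134 (edgeR adjusted p = 0.0286; class-wise 0.105; 0.271 without m12_CD+VC replicate 2). Nfe2l2 itself was not called (17 against 32 counts, edgeR adjusted p = 0.409).

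Promoter windows of the called members of these lists are described here because the genes share a known regulator. Windows from 250 bases before to 50 bases after the start came from RefSeq (GRCm38.p6), which held Srxn1, Gsta3, Gstm1, Gstm3, Ftl1, Fth1 and Gpx1. Gstt2 and Gclc are named only. Both strands were searched for 4 motifs, chosen with the genes' values known: TGACNNNGC, the core letters of an antioxidant response element, CACGTG, an E-box, AGGTCA, a nuclear receptor site, and CACCCCAC, a sterol regulatory element. TGACNNNGC lay in the windows of Srxn1 (chr2:152105274-152105573, plus strand, 28 bases after the start, read on the other strand) and Gsta3 (chr1:21240335-21240634, plus strand, at base -121 from the start). These windows are printed 5′ to 3′ with that match in capitals, and in Srxn1 the match overlaps an AGGTCA.
Srxn1: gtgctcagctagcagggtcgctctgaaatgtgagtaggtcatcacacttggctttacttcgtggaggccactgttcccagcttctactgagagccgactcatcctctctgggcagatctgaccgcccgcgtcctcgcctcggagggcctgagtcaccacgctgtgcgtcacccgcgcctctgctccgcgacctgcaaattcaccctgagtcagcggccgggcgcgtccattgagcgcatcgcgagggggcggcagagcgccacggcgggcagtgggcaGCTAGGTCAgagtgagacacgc
Gsta3: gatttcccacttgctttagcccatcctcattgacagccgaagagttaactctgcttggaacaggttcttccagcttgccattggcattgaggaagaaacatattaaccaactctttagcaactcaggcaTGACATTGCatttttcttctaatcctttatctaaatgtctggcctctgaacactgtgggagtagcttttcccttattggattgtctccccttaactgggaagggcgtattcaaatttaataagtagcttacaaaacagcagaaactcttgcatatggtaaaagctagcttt

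TGACNNNGC was present in 12.45% of all 26994 windows, in 17.65% of the 102 windows matched to genes called higher and in 11.54% of the 104 matched to genes called lower. The same shares were 7.24%, 15.69% and 9.62% for CACGTG, 16.04%, 19.61% and 14.42% for AGGTCA, and 2.77%, 2.94% and 2.88% for CACCCCAC. No test was made of these shares. The 26994 windows were not limited to the 4198 tested genes, from which the called genes come, so the sets compared are unlike. A match describes letters in a window, and the lack of one says only that those letters are not there. Only the exact letters of each motif were searched, so related forms, also within the printed windows, are not marked.

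Fatty acid oxidation in liver is carried out by many targets of Ppara. Of 27 listed genes, 19 were tested, all 19 lay above 0 and the median was 1.01 (0.77 class-wise), with 4 called higher and 0 lower (3 class-wise; 0 to 4 with a library left out, 0 without w12_CD+VC replicate 3). Among the 19 tested, 13 had no exon overlap, a class with 1434 of 2030 genes above 0 and 4.88% called higher. Fabp1, the abundant cytosolic fatty acid carrier of hepatocytes, rose from 1822, 1583 and 882 CPM to 2707, 5403 and 4534, 2.95-fold (edgeR adjusted p = 0.0184; class-wise 0.0607; 0.109 without w12_CD+VC replicate 3). Cyp4a14, a fatty acid omega-hydroxylase strongly driven by Ppara, had 2 counts at the end of exposure and 65 after recovery, a ratio of 30.9 (exact 95% interval 8.23 to 261; edgeR adjusted p = 0.0102; class-wise 0.0217; 0.059 without w12_CD+VC replicate 1). Acaa2, a mitochondrial thiolase, rose from 165, 118 and 146 CPM to 246, 443 and 368 (edgeR adjusted p = 0.0457; class-wise 0.161). Cyp4a10, a close relative of Cyp4a14, gave 19 against 41 counts and Ppara itself 24 against 28, neither called (edgeR adjusted p = 0.263 and 0.838).

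Lipid synthesis was led by the desaturases that make long polyunsaturated fatty acids. Fads2 (chr19:10062765-10101746, GRCm38, minus strand) rose from 160, 86.6 and 99.9 CPM to 453, 428 and 707. The lowest later library was above the highest earlier one by a wide margin (log2 fold change 2.16 ± 0.36, edgeR adjusted p = 0.00167; class-wise 0.00429; at most 0.0137 with a library left out). Fads1, the delta-5 desaturase beside it on the chromosome, rose from 38.7, 63 and 59.9 to 155, 199 and 192 CPM, 3.45-fold (edgeR adjusted p = 0.0231; class-wise 0.0784; 0.0976 without w12_CD+VC replicate 1). Acss2, which makes acetyl-CoA from acetate, had 9 against 84 counts (edgeR adjusted p = 0.0165; class-wise 0.0158; 0.0836 without w12_CD+VC replicate 3), but its exons overlap Ggt7, Gss and the antisense entry Acss2os, the last of which held 879 against 2286 counts, and such reads cannot be separated without strand. In the list of fatty acid and triglyceride synthesis, 21 of 24 genes were tested, 18 lay above 0 with a median of 1.26 (0.89 class-wise; 1.91 without w12_CD+VC replicate 1), and these 3 were called higher and 0 lower (1 higher without w12_CD+VC replicate 3). Fasn, the fatty acid synthase, gave 119, 86.6 and 30 CPM against 296, 221 and 256, and was not called (edgeR adjusted p = 0.102). Scd1, the delta-9 desaturase, spread over 226 to 3404 CPM within w12_CD+VC and was not called (edgeR adjusted p = 0.832).

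Few sterol genes were called. Of 22 cholesterol synthesis genes 12 were tested, 9 above 0 with a median of 1.09 (0.73 class-wise; 1.77 without w12_CD+VC replicate 1), and 2 were called higher and 0 lower. Insig1, a sterol sensor that restrains Srebp, had 10 against 68 counts (edgeR adjusted p = 0.0271; class-wise 0.0611). A pair of cholesterol synthesis genes, named after their values were seen, pointed the other way without being called: Sqle, squalene epoxidase, gave 212, 189 and 173 CPM against 102, 103 and 162 (edgeR adjusted p = 0.185) and Lss, lanosterol synthase, 111, 94.5 and 96.5 against 52.5, 66.4 and 41.8 (edgeR adjusted p = 0.0902).

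Lipid droplet proteins split. Plin2, which coats droplets, rose from 61.9, 110 and 73.2 CPM to 224, 229 and 343, 3.41-fold (edgeR adjusted p = 0.0231; class-wise 0.0595; 0.0939 without w12_CD+VC replicate 3). Cidec, which fuses droplets in steatotic liver, fell from 214, 228 and 200 to 63.6, 73.8 and 139 CPM, 2.26-fold (edgeR adjusted p = 0.0366; class-wise 0.0158; RLE 0.063; 0.122 without m12_CD+VC replicate 1). These were the only calls among 14 tested genes of the droplet and fatty acid uptake list, whose median was 0.97 (0.52 without w12_CD+VC replicate 3).

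Apoa4 (chr9:46240696-46243459, GRCm38, plus strand) rose from 333, 173 and 556 CPM to 1443, 1927 and 2877. Every later library was above every earlier one (log2 fold change 2.52 ± 0.42, edgeR adjusted p = 0.00167; class-wise 0.000677; at most 0.0118 with a library left out). Its exons overlap the entries Gm47528 and Gm10680 on the other strand. It was among 2 called members of 19 tested apolipoprotein and lipoprotein genes, 18 of them above 0 with a median of 0.76 (0.40 class-wise; 0.46 without m12_CD+VC replicate 2). Apob, the structural protein of VLDL, was not called, at 539, 543 and 306 CPM against 520, 819 and 460 (log2 fold change 0.36, edgeR adjusted p = 0.548), and class-wise scaling put it at -0.04.

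Some secreted and surface proteins of hepatocytes were called higher and most were not. Alb, serum albumin, rose from 4457, 4237 and 3135 CPM to 11727, 18130 and 9049, 3.29-fold and with the groups well apart (log2 fold change 1.72 ± 0.41, edgeR adjusted p = 0.0131; class-wise 0.048; 0.0741 without w12_CD+VC replicate 3). Trf, transferrin, rose from 1546, 2000 and 1218 to 4513, 4732 and 3100 CPM (edgeR adjusted p = 0.0204; class-wise 0.0721; 0.108 without w12_CD+VC replicate 3), and Asgr1, the asialoglycoprotein receptor, from 34 to 92 counts (edgeR adjusted p = 0.0491; class-wise 0.149). These were the 3 calls among 20 hepatocyte genes, 17 of which lay above 0 with a median of 0.69 (0.42 class-wise; 0.42 without m12_CD+VC replicate 2), and class-wise scaling called 1. The fibrinogen chains Fga, Fgb and Fgg lay at log2 fold changes of -0.06, -0.13 and 0.07, and the regulator Hnf4a at 0.19, none of the 4 called. Among 27 tested complement and coagulation genes, F2 (prothrombin), Cfi (complement factor I) and Serpind1 (heparin cofactor II) were called higher with joint scaling (edgeR adjusted p = 0.0418, 0.048 and 0.048) and 0 with class-wise scaling. No acute-phase or urea cycle gene was called among 16 and 20 tested.

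Xenobiotic P450s gave 3 higher calls among 16 tested, with a list median of 0.31 (0.05 class-wise). Without m12_CD+VC replicate 2 the median was -0.16, 10 of the 16 lay below 0 and 1 was called, so the direction of the list rests on that library. Cyp2d26 was at 49, 55.1 and 53.3 CPM and then 96.8, 332 and 214 (edgeR adjusted p = 0.0078; class-wise 0.0289; 0.0563 without m12_CD+VC replicate 2). Cyp1a2, an Ahr target, had 24 against 74 counts (edgeR adjusted p = 0.0465; class-wise 0.122; 0.271 without m12_CD+VC replicate 2). Cyp2a4, a female-biased steroid hydroxylase with a close copy in Cyp2a5, had 0 counts against 20, at least 6.35-fold higher, and 18 of these 20 came from m12_CD+VC replicate 1, without which its edgeR adjusted p was 0.339.

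Male-biased liver genes, which depend on pulsed growth hormone, had the lowest median among the lists with at least 8 tested genes, -0.75 over 15 tested genes (-1.19 class-wise), 5 of them above 0. Without m12_CD+VC replicate 2 the median was -1.97 with 4 lower calls, and without m12_CD+VC replicate 3 it was -0.50. The 2 lower calls became 0 without m12_CD+VC replicates 1 or 3 or w12_CD+VC replicates 1 or 3, and 0 with RLE scaling, where the median was -0.49. The major urinary proteins Mup14 and Mup11 fell: Mup14 from 165, 110 and 86.5 CPM to 8.3, 81.2 and 5.57 (edgeR adjusted p = 0.03; class-wise 0.0129; RLE 0.088; 0.116 without m12_CD+VC replicate 1) and Mup11 from 119, 63 and 66.6 to 2.77, 59.1 and 13.9 (edgeR adjusted p = 0.0409; class-wise 0.0188; RLE 0.091; 0.153 without w12_CD+VC replicate 1). In both genes m12_CD+VC replicate 2 lay just below the lowest earlier library and the other two later libraries far below it. Mup genes are near-identical copies, so the counts cannot be assigned to single members with certainty. In clean air the same list had a median of -2.31 and 6 lower calls, and the difference between these time effects was called for 0 of the 15. Igf1, the growth hormone target made by the liver, had 53 against 129 counts (edgeR adjusted p = 0.047; class-wise 0.161).

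Ribosomal proteins were higher in 5 of 28 tested genes and lower in 0, with a median of 0.90 (0.55 class-wise, where 3 passed; 1 to 4 with a library left out, the fewest without w12_CD+VC replicate 3). Rpl10, Rpl18, Rps2 and Rps24 were among those called, at log2 fold changes between 1.36 and 2.44, and Rpl10 and Rps24 lost their calls class-wise (edgeR adjusted p = 0.102 and 0.0855). The exons of Rpl18 overlap Sphk2, which held 2118 against 2524 counts, and such reads cannot be separated without strand. Rps2 overlaps Snhg9, which had 0 counts in both groups. Among 18 tested respiratory chain genes, all above 0 with a median of 0.97 (0.64 without w12_CD+VC replicate 3), Atp5b and Atp5g3 of the ATP synthase were called with joint scaling (edgeR adjusted p = 0.0458 and 0.0401) and 0 with class-wise scaling. Of the 18 tested, 10 had no exon overlap, a class with 1434 of 2030 genes above 0. Atp5h, another ATP synthase subunit outside the list, had 9 against 51 counts (edgeR adjusted p = 0.012; class-wise 0.0301; 0.0727 without w12_CD+VC replicate 1). Tpi1, of glycolysis, was the call among 19 tested glucose genes (edgeR adjusted p = 0.048), and Abcb4, the phospholipid exporter of bile, among 18 bile acid and sterol export genes (edgeR adjusted p = 0.048; class-wise 0.16). The exons of Tpi1 overlap Spsb2, which had 5 against 21 counts and was not called (edgeR adjusted p = 0.212).

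**Figure D2:**
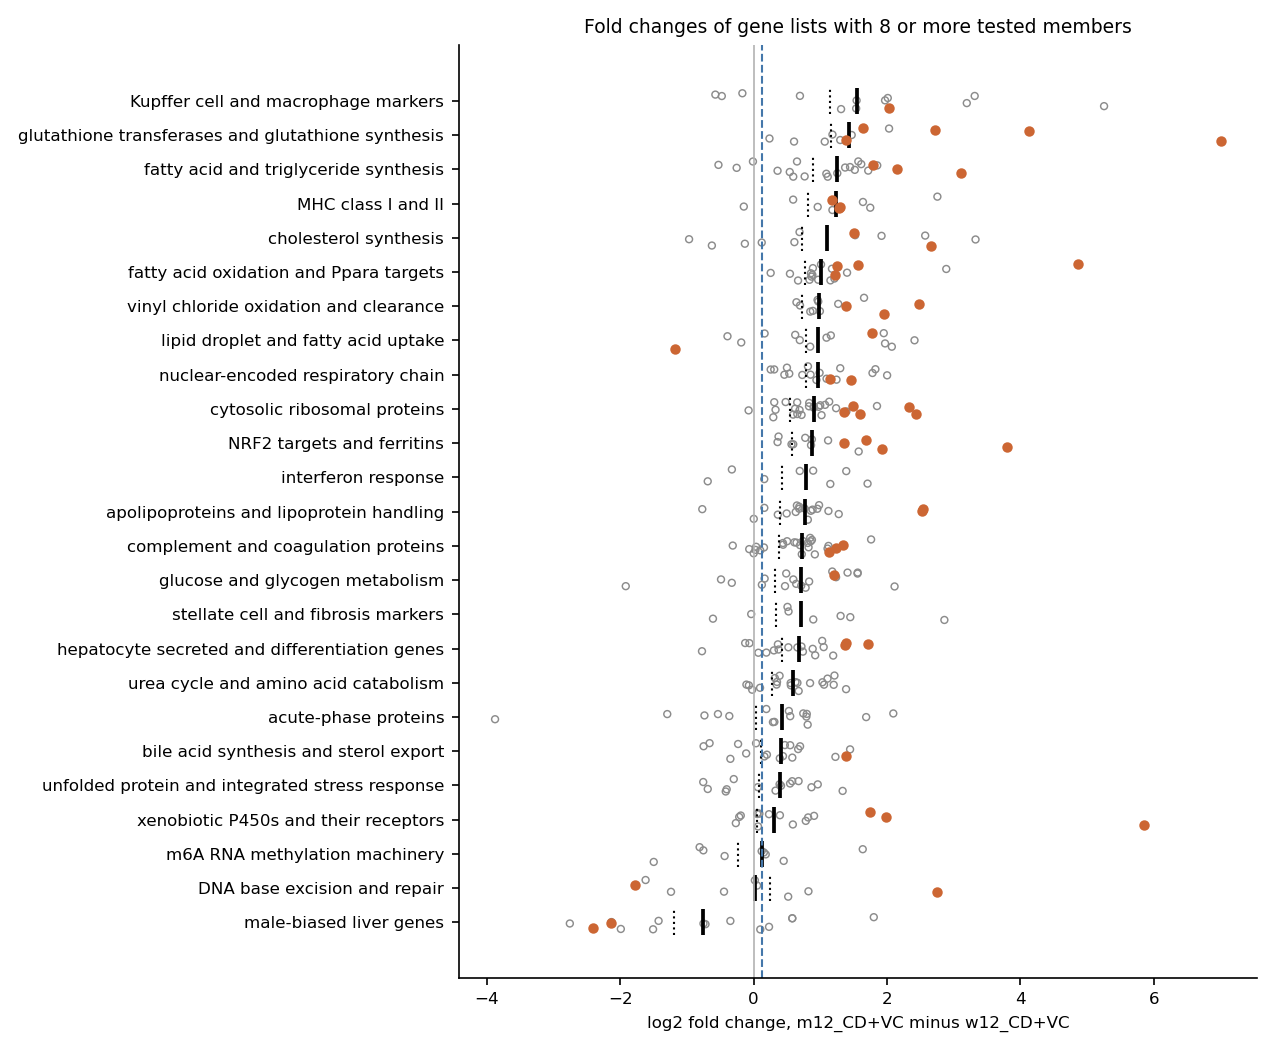
Log2 fold change in m12_CD+VC against w12_CD+VC for each tested member of the gene lists with at least 8 tested members (filled points were called, open points were not). Solid bars are list medians, dotted bars the medians with class-wise scaling, and the dashed line is the median of all genes, 0.13; glutathione genes lie at a median of 1.43 and male-biased genes at -0.75.

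Markers of other cell types were sparse. Of 20 Kupffer cell and macrophage genes, 13 were tested, 10 above 0 with a median of 1.54 (1.15 class-wise). Without m12_CD+VC replicate 1 the median was 0.76 and 0 were called. Summed over all 20, the level was 126 to 245 CPM in w12_CD+VC and 287 to 453 in m12_CD+VC. C1qa, a complement subunit made by macrophages, was called higher at 9 against 39 counts (edgeR adjusted p = 0.0491, class-wise 0.131, and 0.193 without m12_CD+VC replicate 1). Clec4f, a marker of resident Kupffer cells, gave 32 against 25 counts and was not called (edgeR adjusted p = 0.595). Other markers of these cells, Vsig4 (1 against 8), Cd5l (11 against 33) and Csf1r (1 against 13), had more counts in m12_CD+VC. So did C1qb (12 against 19), C1qc (13 against 36) and Lyz2 (6 against 24). The summed level of the 20 hepatocyte genes was 13247 to 19247 CPM and then 23199 to 38518, so both sums moved with time, and the part of cell composition in the other results was not tested. Of 12 cholangiocyte markers 3 were tested, all above 0 with a median of 1.34 (0.94 class-wise; 0.65 without m12_CD+VC replicate 1), and the list held 99 counts in w12_CD+VC and 218 in m12_CD+VC. Most were of Krt18 (51 against 104) and Krt8 (29 against 89), keratins that hepatocytes also make. Neither was called with joint scaling (edgeR adjusted p = 0.0909 and 0.0563), both were with RLE scaling (0.0401 and 0.0407), and Krt8 was class-wise (0.0418). The part of these cells in the other results was not tested. In the list of MHC class I and II genes, H2-K1, H2-Q10 and B2m were called higher with joint scaling (edgeR adjusted p = 0.0378, 0.0256 and 0.048). Class-wise scaling called 0 of the 10 tested. Among 8 stellate, 6 endothelial, 8 interferon response and 15 unfolded protein response genes tested, edgeR called 0 with joint scaling.

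Genes tied to DNA damage and tumours were mostly too rare to test. Of 20 base excision and repair genes 9 were tested, with a median of 0.02 (-0.26 to 0.11 with a library left out). Lig3 (chr11:82781108-82804274, GRCm38, plus strand) fell from 230, 205 and 216 CPM to 63.6, 73.8 and 55.7. The libraries within each group lay close together and the groups far apart (log2 fold change -1.78 ± 0.35, edgeR adjusted p = 0.00406; class-wise 0.00957; at most 0.0186 with a library left out). Its exons overlap Rffl, which lay at 170, 150 and 200 CPM and then 74.7, 103 and 100.3, not called (edgeR adjusted p = 0.0796). Xpc, which recognises bulky lesions, had 3 against 23 counts, a ratio of 7.30 (exact 95% interval 2.20 to 38), and its call (edgeR adjusted p = 0.048; class-wise 0.0801) was lost whichever of the 6 libraries was left out. Ogg1 and Apex1, of base excision repair, were not called (edgeR adjusted p = 0.546 and 0.984). Afp, a fetal and tumour marker, gave 74.8, 7.88 and 83.2 CPM against 58.1, 36.9 and 120, overlapping groups with no call (edgeR adjusted p = 0.726). Gpc3, another tumour marker, had 0 counts and then 1, Mki67, a proliferation gene, 0 and then 3, and Cdkn1a, a p53 target, 0 and then 1, all too few to test.

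The machinery of N6-methyladenosine, a mark on messenger RNA, showed no call among 9 tested of 23 listed genes, with a median of 0.12 (-0.24 class-wise; -0.31 to 0.17 with a library left out). Mettl3, its catalytic subunit, stood at 160, 260 and 233 CPM and then 130, 125 and 125. The groups did not overlap, but the difference did not pass (log2 fold change -0.75 ± 0.30, edgeR adjusted p = 0.109), and the exons overlap Tox4. Fto, a demethylase, had 2 against 10 counts and was not tested.

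The higher calls with the largest fold changes outside these lists were mostly genes of few counts. Ces1g, a liver carboxylesterase, had 5 against 62 counts (edgeR adjusted p = 0.0078; class-wise 0.0167; 0.0536 without w12_CD+VC replicate 3). Entpd5, an endoplasmic reticulum nucleotidase, stood at 7.74, 7.88 and 9.99 CPM and then 58.1, 59.1 and 52.9, narrow groups far apart that kept the call with every library left out (edgeR adjusted p = 0.00762; class-wise 0.016). Anxa5, a phospholipid binding annexin, had 4 against 41 counts, Eif3f, a translation initiation subunit, 1 against 21, Mmp15, a membrane metalloproteinase, 2 against 31, and Mvp, the major vault protein, 1 against 18. Bgn, the matrix proteoglycan biglycan, had 2 against 21 counts, Marveld1 3 against 28 and Tceal8 2 against 23. Each of these 7 lost its call when at least 1 library was left out, w12_CD+VC replicate 3 or m12_CD+VC replicate 1 among them. Class-wise scaling ended the calls of Anxa5, Bgn, Marveld1 and Tceal8 (edgeR adjusted p = 0.0585, 0.0991, 0.063 and 0.0655) and kept those of Eif3f, Mmp15 and Mvp.

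Lower calls included entries with far more counts. Hmox2 (chr16:4726361-4766742, GRCm38, plus strand), named after its values were seen, fell from 960, 1087 and 962 CPM to 268, 244 and 306. Both groups were tight and well separated, 3.64-fold (log2 fold change -1.87 ± 0.32, edgeR adjusted p = 0.0018; class-wise 0.00213; at most 0.0102 with a library left out), and its exons overlap Cdip1. Tmed8, a gene of the p24 trafficking family without an overlap, fell from 85.2, 118 and 43.3 to 8.3, 14.8 and 5.57 CPM, 9.04-fold (edgeR adjusted p = 0.00257; class-wise 0.00161; at most 0.0159 with a library left out). Cmah, which makes the sialic acid Neu5Gc, fell from 470, 173 and 206 to 38.7, 111 and 41.8 CPM (edgeR adjusted p = 0.0158; class-wise 0.00429; RLE 0.051; 0.0984 without w12_CD+VC replicate 1). Pfkfb2, a regulator of glycolysis, had 67 against 14 counts (edgeR adjusted p = 0.0151; 0.0926 without w12_CD+VC replicate 3). Its exons overlap Yod1, which had 64 against 24 counts and was not called (edgeR adjusted p = 0.0883), and such reads cannot be separated without strand. Slc22a3, an organic cation transporter overlapping Plg, spread over 56.8, 284 and 176 CPM before 38.7, 29.5 and 36.2 (edgeR adjusted p = 0.0244; 0.0857 without w12_CD+VC replicate 2). Kdm7a, Simc1, Spata9, Syt15, Zmym1, Fam92a and Wdr8 completed the lower genes selected by size, with log2 fold changes from -3.55 to -2.17, and every one of these lost its call without w12_CD+VC replicate 1 or replicate 3. The exons of Kdm7a overlap 4930599N23Rik and those of Simc1 overlap 4833439L19Rik. Predicted or clone entries made up 22 of the calls, 20 of them lower, beside 132 lower among all 268 calls. How many such entries were tested is not given here, so their share called is not known. Those with the most counts were B430010I23Rik, at 1881, 1693 and 2044 CPM and then 871, 679 and 872 (edgeR adjusted p = 0.00682), Gm10007, 1700007J10Rik and C230091D08Rik, of which 1700007J10Rik lost its call class-wise (edgeR adjusted p = 0.0801). The exons of B430010I23Rik overlap Mtus1 and those of 1700007J10Rik overlap Mprip.

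**Figure D3:**
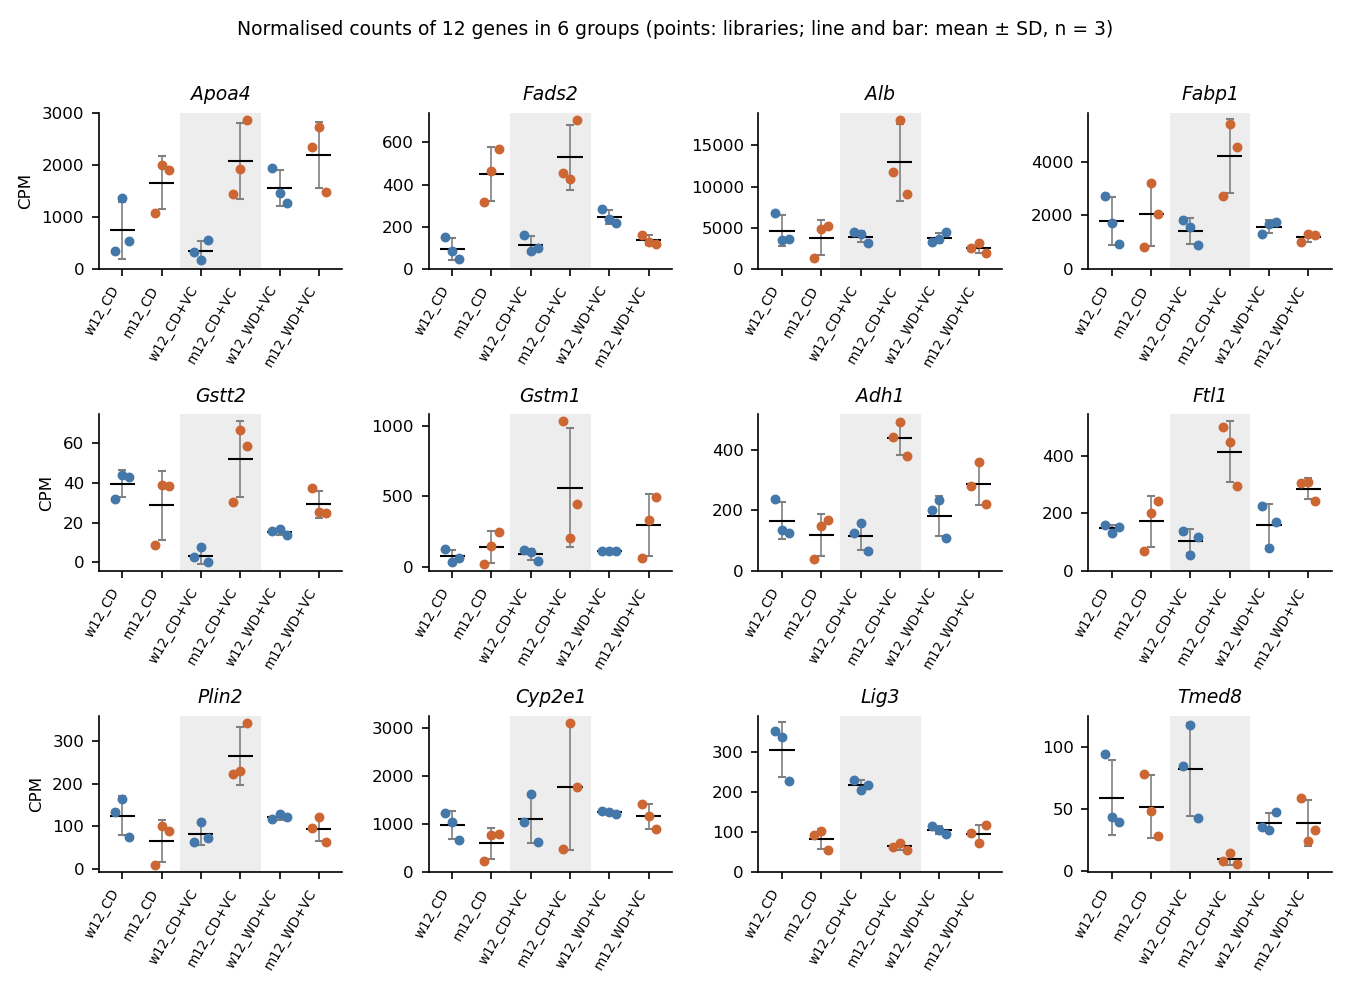
CPM of 12 genes in every library of 6 groups (points are libraries, blue at 12 weeks and orange at 12 months; lines and bars are mean ± SD, n = 3; grey marks the exposed mice on control diet; each axis has its own range). In the grey columns Apoa4, Fads2, Gstt2, Adh1 and Ftl1 lie higher at 12 months in all 3 libraries, Lig3 and Tmed8 lower, and Cyp2e1 overlaps.

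The same interval was then compared without vinyl chloride and on the Western diet. The time effect in clean air called 68 genes (1.62%), and that on the Western diet with vinyl chloride 33 (0.786%). Of the 136 higher calls, 92 lay above 0 in clean air and 8 were called there. On the Western diet 117 lay above 0 and 3 were called. Of the 132 lower calls, 118 lay below 0 in clean air with 17 called, and 117 on the Western diet with 5 called. None was called in the opposite direction. Over all 4198 genes, 2081 lay above 0 in clean air and 2271 on the Western diet.

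Tests of the difference itself called few genes. The interaction of vinyl chloride with time on the control diet passed for 6 genes (0.143%), Gstt2, Entpd5, Aldh1a1, Atp5h, Slc22a3 and Apob, with 585 at an unadjusted p under 0.05. DESeq2, limma-voom, class-wise scaling and a fit without w12_WD replicate 3 each called 0, and leaving out 1 library of the 4 groups gave 0 to 22. Gstt2 averaged 39.5 ± 6.9 CPM (SD, n = 3) in w12_CD and 28.7 ± 17.3 in m12_CD, against 3.49 ± 4.01 and 51.8 ± 18.9 with vinyl chloride (interaction 4.52 on the log2 scale, edgeR adjusted p = 0.0397). Apob fell in clean air from 632 ± 193 to 160 ± 79.7 CPM (edgeR adjusted p = 0.0045) and gave 463 ± 136 and 600 ± 193 with vinyl chloride (interaction 2.31, edgeR adjusted p = 0.0487).

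The interaction of diet with time under vinyl chloride passed for 1 gene (0.0238%), Fads2, with 357 at an unadjusted p under 0.05. On the Western diet Fads2 went from 247 ± 33.3 to 136 ± 24.1 CPM, the opposite direction to the control diet (interaction -3.06 on the log2 scale, edgeR adjusted p = 0.00341). In clean air on the control diet Fads2 rose from 94.7 ± 51 to 449 ± 127 CPM (log2 fold change 2.26, edgeR adjusted p = 0.00084), beside 2.16 with vinyl chloride, and that difference was -0.10 (edgeR adjusted p = 0.95). Lig3 likewise fell in clean air (log2 fold change -1.87, edgeR adjusted p = 0.0022).

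**Figure D4:**
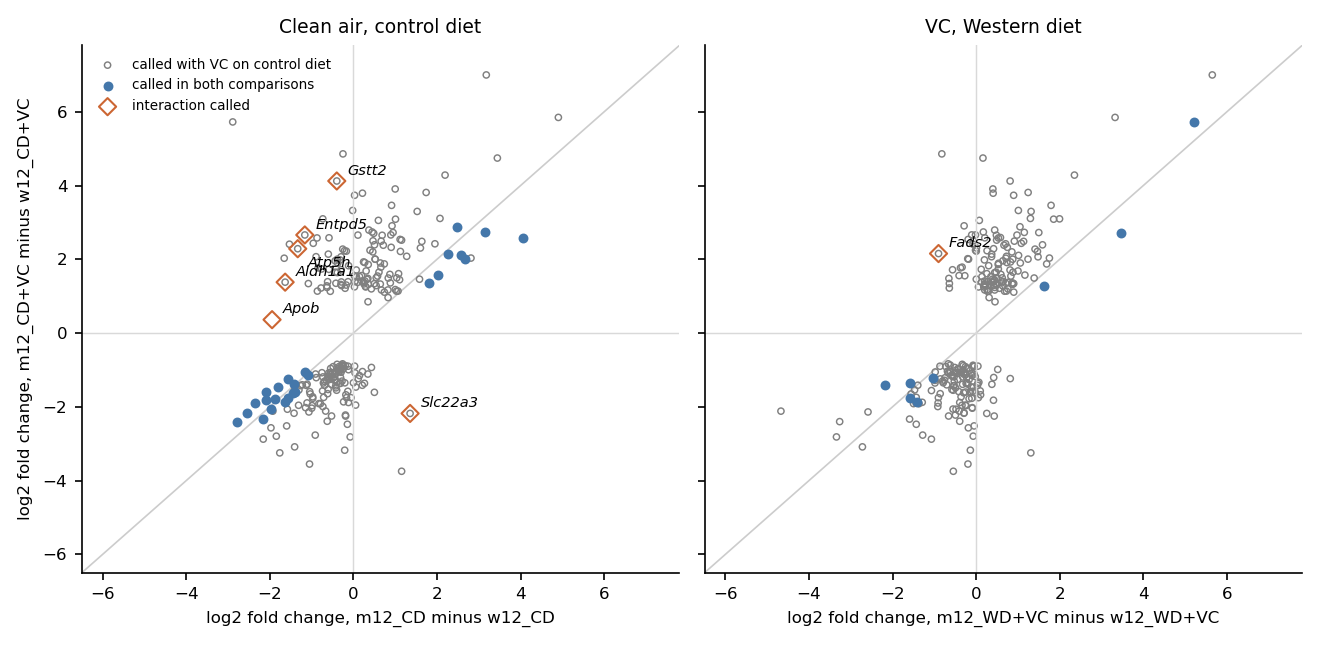
Log2 fold change from 12 weeks to 12 months in exposed mice on control diet (vertical) against the same interval in clean air (left) or on the Western diet with vinyl chloride (right), for genes called in the vertical comparison or for an interaction. Filled points were called in both comparisons and diamonds mark the 6 and 1 called interactions; Gstt2 lies at 4.12 against -0.40 and Fads2 at 2.16 against -0.90.

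List medians differed between the settings, in size and for some lists in sign, and few members differed by test. Fatty acid oxidation genes had a median of 1.01 with vinyl chloride, -0.50 in clean air and -0.04 on the Western diet, and edgeR called 0 of the 19 for either interaction. Glutathione genes had medians of 1.43, -0.13 and 0.41, with Gstt2 as the called interaction. Ribosomal proteins had medians of 0.90, -0.01 and 1.03, and male-biased genes -0.75, -2.31 and -2.34, with 0 interactions called in both lists. In the same order, all genes without an exon overlap had medians of 0.52, -0.10 and 0.14, and genes with one -0.16, 0.06 and -0.02. The part of this shift between the classes in the list medians was not tested.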

How the data were processed

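Liver RNA of 24 libraries in 8 groups of 3 was sequenced. The authors deposited raw counts per gene, made with Trimmomatic 0.38, HISAT2 2.1.0 and HTSeq 0.11.2 on mm10, per the submitters' processing notes. How strand was treated in counting: not given in the sources used here; whether the setting matched the kit, which does not mark strand, was not tested. Groups were taken from the labels. All 24 libraries entered 1 group-means model in edgeR 4.0.16 (R 4.3.3) with TMM scaling, filterByExpr and quasi-likelihood tests; 4198 of 24421 entries were tested, with Benjamini-Hochberg adjustment over all of them and a threshold of 0.05. Interactions were contrasts of the same model. The script was tested on simulated data. Entries were placed by symbol (23334) or RefSeq synonym (659) on GENCODE M21 (GRCm38); the exons of 5794 overlapped a gene on the other strand, those of 18199 did not, and 428 were not placed. Counts were divided by the TMM-scaled total over tested genes to give CPM. A fold against 0 counts is a bound at 3 counts over the group, and 1 to 3 counts give a ratio with an exact 95% interval; intervals and floors cover counting error only, since no molecular identifiers were counted. No replicates held identical counts. Alternatives were RLE scaling, DESeq2 1.42.0, limma-voom (limma 3.58.1), no filter, the compared groups alone, class-wise TMM, entries without an overlap alone, a replicate block and each library left out. The members and the gene lists were chosen with earlier results of these data known. Named genes were called, had a mean of at least 20 CPM in either group, separate ranges of CPM and an established symbol (the 12 with the largest fold change in each direction), or were up to 4 calls of each list by p, plus 8 fixed genes and up to 5 genes per direction for each interaction; some genes that met this rule are not reported here. Other genes are said to be named after their values were seen, or are uncalled list members given for context. Members of gene families with near-identical copies (Mup, Gstm, Cyp2a, Cyp4a, H2, ferritin and ribosomal genes) are uncertain.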

Additional observations from a re-analysis of the deposited data

Results flagged for a closer look

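Each gene here was listed because a test of the difference between 2 settings' time effects passed in edgeR. For vinyl chloride against clean air on the control diet, the differences in log2 fold change were 4.52 for Gstt2, 3.82 for Entpd5, 3.01 for Aldh1a1 and 3.62 for Atp5h (adjusted p = 0.0397 for each), -3.54 for Slc22a3 and 2.31 for Apob (adjusted p = 0.0487 for both). Gstt2 passed in 7, Entpd5 in 4, Aldh1a1 in 5, Atp5h in 3 and Apob in 5 of 21 alternatives, and Slc22a3 in 4 of 20. For the Western against the control diet under vinyl chloride, Fads2 differed by -3.06 (adjusted p = 0.00341) and passed in 20 of 21 alternatives, the exception being the fit of genes without an overlap alone.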

How the results depend on the processing

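The 268 calls of the time effect on control diet with vinyl chloride became 138 without an expression filter, 125 with DESeq2, 161 with the compared groups alone, 66 with entries without an overlap alone and 50 to 284 with a library left out (50 without w12_CD+VC replicate 3, 284 without w12_WD replicate 3); fewer genes or samples enter some of these, and the cause was otherwise not tested. RLE scaling moved the split from 136 higher and 132 lower to 213 and 58. In clean air 68 calls became 154 with limma-voom, 19 without overlapping entries and 18 to 72 with a library left out. On the Western diet with vinyl chloride 33 became 54 without a filter, 239 with limma-voom, 222 with the groups alone, 4 without overlapping entries and 2 to 29 with a library left out. The 6 interactions with vinyl chloride became 10 with RLE and 20 without a filter, 0 with DESeq2, limma-voom, class-wise TMM, entries without an overlap alone, the groups alone and without w12_WD replicate 3, and 0 to 22 with a library left out. The 1 interaction with diet became 6 without a filter, 2 with DESeq2, 4 with limma-voom, 5 with the groups alone, 0 without overlapping entries and 1 to 2 with a library left out. Uncalled values that changed sign were Afp (-0.11 with class-wise TMM and -0.11 without overlapping entries, -0.09 without w12_CD+VC replicate 2, -0.40 without m12_CD+VC replicate 3, and up to 0.59 without w12_CD+VC replicate 3), Apob (-0.0433 with class-wise TMM and -0.0387 without overlapping entries) and Cyp2e1 (-0.026 without m12_CD+VC replicate 2, 1.07 without m12_CD+VC replicate 1). Class-wise TMM moved 7 of 37 list medians by more than the spread and changed the sign of 5. The labels do not say that replicate numbers pair animals, and deviations of same-numbered libraries correlated at 0.007, 0.106 and 0.155. Fitting the number as a replicate block gave 238 calls (123 higher, 115 lower), 71 in clean air, 35 on the Western diet, and 4 and 1 interactions; m12_CD+VC replicate 1 correlated best with another number. Depth limits genes of few counts: 3 counts are 7.74 to 23.6 CPM.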
